A study of Homo sapiens with 12 samples.

Results

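Interferon regulatory factors are transcription factors that share a DNA-binding domain with conserved tryptophans and read variants of the sequence GAAA in the control regions of interferon genes and of genes that interferon switches on. The 8 members described here were the rows of the gene annotation with the symbols IRF1, IRF2, IRF3, IRF4, IRF5, IRF7, IRF8 and IRF9, chosen by name, out of 57905 genes in the files. They were measured in Nalm-6, a leukemia line of human B cell precursors, by droplet single-cell RNA-seq that counts molecules from their 3′ ends as unique molecular identifiers (UMIs). One library, labelled RUNX1, came from cells transduced with a Tet-On regulator and a response vector holding RUNX1 cDNA and kept for 72 h with 500 ng/ml doxycycline. The other is the control, also labelled 72 h, with the genotype label empty vector but with DMSO in its title and no doxycycline in its own labels. The paper that reported the data lists this series as Nalm-6 with DMSO, and its methods treat Nalm-6 with DMSO for less than 72 h. Whether the control is that sample is not said. Vector, inducer, solvent, time and culture can therefore not be told apart from the RUNX1 label. ChIP-seq, which makes up 10 further samples, is not analysed here. Each group had 1 library, so there was no test between conditions, and all intervals below are 95% intervals for counting error only.

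Some members respond to infection and interferon, and others direct blood cell fates. IRF3, IRF5 and IRF7 are switched on by phosphorylation downstream of sensors of foreign nucleic acid, and IRF9 is the DNA-binding part of ISGF3, a complex that includes STAT2 and carries the type I interferon signal. IRF1 activates and IRF2 mostly opposes interferon responses at the same DNA sites. IRF4 and IRF8 act together in B cell precursors, where work in mice showed that they are needed for the step past the pre-B cell.

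After the cell filter, 4800 of 5491 barcodes remained in the RUNX1-labelled library and 5598 of 6073 in the control, with 75350615 and 75754137 human UMIs. The median cell held 14805 UMIs in the RUNX1-labelled library and 12505.5 in the control, and 10 barcodes occurred in both sets. RUNX1 itself was lower in the RUNX1-labelled library, at 30.4 CPM (UMIs scaled to a common library total) against 69.7 CPM in the control, a log2 ratio of -1.20 (-1.27 to -1.13). The count goes against the label, and the sources do not say whether the construct holds the 3′ end that the assay reads. The paper that reported the data describes Nalm-6 cells stably overexpressing RUNX1 and probed for its protein. It gives no RUNX1 protein level for these libraries. Of 11 listed B precursor markers 10 were in the files, and all 10 had a mean above 1 CPM over both libraries. Their sum was 5241.8 CPM in the RUNX1-labelled library and 3802.9 CPM in the control. Most of that difference lay in VPREB1, at 2317.7 CPM in the RUNX1-labelled library and 1021.8 CPM in the control. The median log2 ratio of the list was -0.043, with 2 genes past 2-fold higher and 1, CD22, past it lower at -1.16. Myeloid markers summed to 4.70 CPM in the RUNX1-labelled library and 3.85 CPM in the control over 8 genes, with S100A8 and S100A9 at 0 UMIs. T cell markers summed to 9.38 and 7.604 CPM over 7 genes, nearly all of it TRAC, with CD3D and CD3G at 0 UMIs. Plasma cell markers summed to 736.6 and 735.2 CPM over 5 genes, most of it XBP1, while IGJ had a log2 ratio of 2.23 and MZB1 one of -1.33. Erythroid markers summed to 0.0133 and 0.0132 CPM over 5 genes, or 1 UMI in each library.

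IRF7 and IRF9 stood higher in the RUNX1-labelled library, and the other members differed by less than 2-fold or were too rare to compare. Of the 8 members, 7 had a mean of at least 1 CPM over both libraries. Of these 7, 2 were past 2-fold upward and 0 past 2-fold downward in the RUNX1-labelled library. Over all 12273 genes above the same floor, the background was 10.5% past 2-fold upward and 3.78% past it downward, which makes 73.5% of the genes past 2-fold higher ones. That share was 88.2% on reduced totals, meaning library totals from which the UMIs of mitochondrial and ribosomal protein genes were taken away. Mitochondrial genes took 13.1% of UMIs in the RUNX1-labelled library and 9.45% in the control, and ribosomal protein genes 32.4% and 27.5%. That scaling moved the log2 ratio of every gene alike, by 0.21, and so also the median of all genes, where it was 0.0020 on plain totals. The median of the 7 members was 0.038 on plain totals.

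IRF9 had the largest ratio among the members. It was counted with 827 UMIs in the RUNX1-labelled library and 169 UMIs in the control, or 11.0 CPM (10.2 to 11.7) against 2.23 CPM (1.91 to 2.59). The log2 ratio was 2.30 (2.06 to 2.55), a 4.92-fold difference. After each cell was reduced at random to 8000 UMIs, IRF9 was seen in 7.88% (7.08 to 8.74) of cells of the RUNX1-labelled library and in 1.76% (1.42 to 2.15) of control cells, with exact binomial intervals. Without that reduction the shares were 14.6% and 2.91%. The gene (ENSG00000213928) lies on the plus strand of GRCh37 chromosome 14, 24630443 to 24637252, and a gene annotated on the same strand, ENSG00000259529, overlaps it, so reads of the pair may have been split or dropped in counting. ENSG00000259529 had 3.56 CPM in the RUNX1-labelled library and 1.31 CPM in the control.

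IRF7, which is kept low in resting cells and is itself induced by interferon, was counted with 2718 UMIs in the RUNX1-labelled library and 1004 in the control. These were 36.1 CPM (34.7 to 37.5) and 13.3 CPM (12.4 to 14.1), a log2 ratio of 1.44 (1.34 to 1.55) or 2.72-fold. The share of cells with a UMI was 23.0% (21.8 to 24.3) in the RUNX1-labelled library and 9.78% (8.98 to 10.6) in the control at 8000 UMIs per cell, or 35.2% and 15.9% without the reduction. With mitochondrial UMIs limited to 10% in place of 20%, the log2 ratio was 2.09, on 599 cells of the RUNX1-labelled library and 3651 control cells. The gene (ENSG00000185507) lies on the minus strand of chromosome 11, 612553 to 615983, with no overlapping gene in the annotation. Plasmacytoid dendritic cells carry much IRF7 and IRF8. Of the 5 listed markers of those cells, CLEC4C had 0 UMIs in both libraries, GZMB had 1 UMI in the RUNX1-labelled library and 0 in the control, LILRA4 had 74 and 12 UMIs, and NRP1 60 and 0 UMIs. IL3RA, the one marker of that list above the floor, had 93 UMIs in the RUNX1-labelled library and 112 in the control, a log2 ratio of -0.26 (-0.67 to 0.15), or -0.76 in non-cycling and -0.75 in cycling cells. The list summed to 3.03 CPM in the RUNX1-labelled library and 1.64 CPM in the control. Its part in the IRF7 level was not tested.

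IRF1 was lower in the RUNX1-labelled library. IRF1 (ENSG00000125347, chromosome 5, minus strand, 131776132 to 131844411) had 3016 UMIs there and 4020 in the control, or 40.0 CPM (38.6 to 41.5) against 53.1 CPM (51.4 to 54.7). Its log2 ratio was -0.41 (-0.48 to -0.34), or -0.10 with the 10% mitochondrial limit. IRF1 was seen in 24.1% of cells of the RUNX1-labelled library and 34.2% of control cells at 8000 UMIs per cell. Its gene overlaps C5orf56 on the other strand, at 12.02 CPM in the RUNX1-labelled library and 12.3 CPM in the control. IRF2 (ENSG00000168310, chromosome 4, minus strand, 185306856 to 185395712) had 2488 UMIs in the RUNX1-labelled library and 2851 in the control, or 33.02 against 37.6 CPM. The log2 ratio of IRF2 was -0.19 (-0.27 to -0.11), or 0.023 on reduced totals with their shift of all genes. Relative to the median of all genes, IRF2 lay between -0.29 and -0.11 over plain totals and the 7 alternatives for cells, scaling and weighting. A gene on its strand that overlaps it, ENSG00000270426, had 0.557 CPM in the RUNX1-labelled library and 0.356 CPM in the control.

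IRF3, the factor that starts interferon beta transcription, was nearly level on plain totals. It had 3148 UMIs in the RUNX1-labelled library and 3112 in the control, or 41.8 CPM (40.3 to 43.3) and 41.1 CPM (39.6 to 42.5). Its log2 ratio was 0.024 (-0.048 to 0.096). Its gene (ENSG00000126456, chromosome 19, minus strand, 50162826 to 50169132) overlaps BCL2L12 on the other strand, which had 58.4 CPM in the RUNX1-labelled library and 71.2 CPM in the control.

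IRF4 (ENSG00000137265, chromosome 6, plus strand, 391739 to 411443) had 2993 UMIs in the RUNX1-labelled library and 2646 in the control, or 39.7 CPM (38.3 to 41.2) against 34.9 CPM (33.6 to 36.3). The log2 ratio over all cells was 0.19 (0.11 to 0.26). Its relative IRF8 was close to absent, with 95 UMIs in the RUNX1-labelled library and 93 in the control, or 1.26 CPM (1.02 to 1.54) and 1.23 CPM (0.991 to 1.504). IRF8 (ENSG00000140968, chromosome 16, plus strand, 85932722 to 85956212) was seen in 1.07% and 0.868% of cells at 8000 UMIs per cell, with at most 2 UMIs in any cell. Both libraries are labelled Nalm-6 alone, so no cell type that should lack IRF8 gave a background share, and these shares are not read as expression. IRF5 (ENSG00000128604, chromosome 7, plus strand, 128577511 to 128590092) had 0 UMIs in the RUNX1-labelled library, which allows up to 0.0398 CPM at 3 UMIs, and 5 UMIs or 0.0660 CPM in the control. No difference in IRF5 was detectable at this depth.

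**Figure D1:**
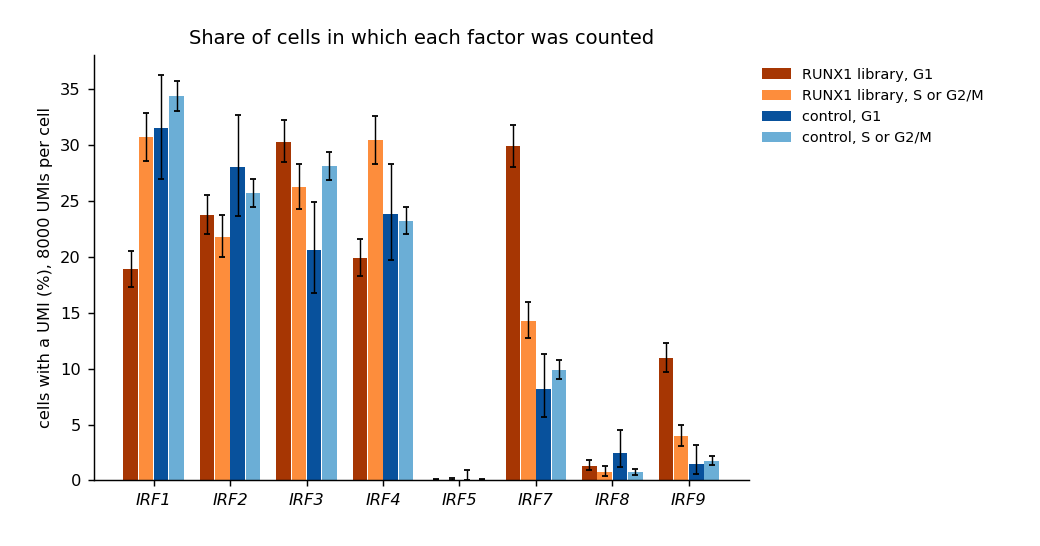
The vertical axis gives the percentage of cells with at least 1 UMI of each factor (horizontal axis) after every cell was reduced to 8000 UMIs, with exact 95% binomial intervals; dark and light orange are cells called G1 and cells called S or G2/M of the RUNX1-labelled library, dark and light blue the same of the control. IRF7 reaches 29.9% in G1 cells of the RUNX1-labelled library and lies at 14.3% or lower in the other pools, whereas IRF5 is at or near 0 in every pool.

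Because the libraries differed in their share of dividing cells, the comparison was repeated by cycling state. Cells were called G1 where scores of S and of G2/M genes were both below 0, and are named non-cycling here, while cells called S or G2/M are named cycling. No member belongs to the genes scored. Non-cycling calls made up 61.1% of the RUNX1-labelled library (2934 cells) and 8.34% of the control (467 cells). The larger of the 2 scores lay within 0.05 of the cut for 4.13% of cells of the RUNX1-labelled library and 3.82% of control cells. The calls read transcripts, free RNA included, and not DNA content.

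Among non-cycling cells, IRF7 and IRF9 again stood higher. IRF7 had 1935 UMIs in the RUNX1-labelled library and 72 in the control, or 53.1 CPM (50.7 to 55.5) against 14.6 CPM (11.4 to 18.4), a log2 ratio of 1.86 (1.52 to 2.22). IRF9 had 609 UMIs in the RUNX1-labelled library and 12 in the control, or 16.7 against 2.43 CPM, with a log2 ratio of 2.78 (1.96 to 3.74). These were the 2 of 7 members past 2-fold upward among non-cycling cells, beside 15.8% of all genes, and 0 members were 2-fold lower, beside 6.63% of all genes. IRF1 was lower, at 32.5 CPM in the RUNX1-labelled library and 54.7 CPM in the control (log2 ratio -0.75, -0.94 to -0.56).

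Among cycling cells, IRF9 had a log2 ratio of 1.34 (1.04 to 1.64), with 5.604 CPM in the RUNX1-labelled library and 2.22 CPM in the control. It was the 1 member past 2-fold, beside 5.74% of all genes higher and 1.89% lower by that much. IRF7 was at 20.1 CPM and 13.2 CPM, a log2 ratio of 0.61 (0.47 to 0.75). IRF1 was at 47.1 and 53.0 CPM (-0.17, -0.25 to -0.089).

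IRF3 and IRF4 had ratios of opposite sign in the 2 states, where the median of all genes was -0.052 in cycling and 0.091 in non-cycling cells. IRF4 was at 48.2 CPM in cycling cells of the RUNX1-labelled library and 34.8 CPM in those of the control, a log2 ratio of 0.47 (0.38 to 0.56). In non-cycling cells it was at 30.6 and 37.1 CPM, a log2 ratio of -0.28 (-0.50 to -0.042). With phases called after the cells were reduced to 8000 UMIs, the non-cycling value of IRF4 was -0.14 (-0.36 to 0.087), whose interval holds 0. IRF3 had a log2 ratio of -0.11 (-0.20 to -0.020) in cycling and 0.50 (0.27 to 0.75) in non-cycling cells, and with the reduced cells -0.12 (-0.21 to -0.028) and 0.34 (0.11 to 0.57). Both cycling intervals of IRF3 hold the median of all genes, so IRF3 was not set apart from other genes in cycling cells. The log2 ratio of IRF2 was -0.27 in cycling and -0.25 in non-cycling cells on plain totals.

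**Figure D2:**
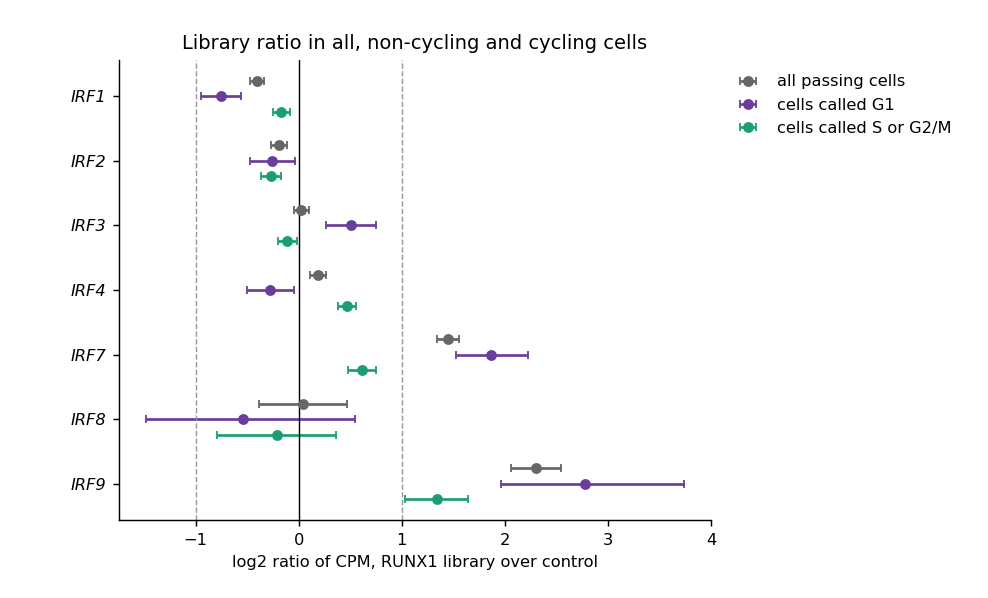
Each point is the log2 ratio of CPM in the RUNX1-labelled library over the control (horizontal axis) for 1 factor (vertical axis), with exact 95% counting intervals; grey stands for all passing cells, purple for cells called G1 and green for cells called S or G2/M, dashed lines mark 2-fold, and IRF5 is left out for its 0 UMIs. IRF7 and IRF9 lie right of 0 in all 3 sets, and the purple and green points of IRF3 and IRF4 fall on opposite sides of 0.

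Within the RUNX1-labelled library, IRF7 and IRF9 stood higher in non-cycling than in cycling cells, while IRF1 and IRF4 stood lower. IRF7 was at 53.1 CPM in non-cycling and 20.1 CPM in cycling cells, a log2 ratio of 1.40 (1.28 to 1.52). IRF9 was at 16.7 and 5.604 CPM, a log2 ratio of 1.58 (1.35 to 1.81). These 2 of 7 members were 2-fold higher, beside 8.49% of all genes, and 0 were 2-fold lower, beside 5.6%. For IRF4 the values were 30.6 CPM in non-cycling and 48.2 CPM in cycling cells (log2 ratio -0.65, -0.76 to -0.55), and for IRF1 32.5 and 47.1 CPM (-0.53, -0.64 to -0.43). The median non-cycling cell of this library held 11658.5 UMIs and the median cycling cell 20228. CPM is a share of all UMIs, so these ratios are not ratios of molecules per cell. Without reduction of the cells, IRF7 was seen in 38.2% of non-cycling and 30.4% of cycling cells.

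In the control, 0 of 7 members were 2-fold higher or lower in non-cycling than in cycling cells, beside 2.16% of all genes higher and 6.18% lower. IRF7 was at 14.6 CPM in non-cycling and 13.2 CPM in cycling control cells (log2 ratio 0.15, -0.22 to 0.50) and IRF4 at 37.1 and 34.8 CPM (0.093, -0.13 to 0.31). With 467 non-cycling control cells, the interval of IRF9, -0.85 to 0.98, still allowed a difference of nearly 2-fold either way. IRF3 was at 45.1 CPM in non-cycling and 38.7 CPM in cycling cells of the RUNX1-labelled library (0.22, 0.12 to 0.32), and at 31.8 and 41.7 CPM in those of the control (-0.39, -0.63 to -0.16). With phases called on the reduced cells, the value in the RUNX1-labelled library was 0.11 (0.0011 to 0.21), an interval that holds the median of all genes, 0.044. Without reduction of the cells, IRF3 was seen in 41.7% of non-cycling and 53.9% of cycling cells of that library.

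By phase, the order of the IRF4 levels in the RUNX1-labelled library was G1, S and G2/M, at 30.6 CPM (28.9 to 32.5), 43.2 CPM (40.5 to 46.1) and 54.5 CPM (51.1 to 58.2), and none of these intervals overlapped. Control levels of IRF4 were 37.1, 32.98 and 37.4 CPM, with the interval of G1 overlapping both others. The control intervals of S (31.3 to 34.8) and G2/M (35.2 to 39.7) did not overlap, so IRF4 was higher in G2/M than in S in both libraries. IRF1 followed a like order in the RUNX1-labelled library, at 32.5 CPM in G1, 45.3 CPM in S and 49.4 CPM in G2/M, of which the intervals of S and G2/M overlapped. IRF7 was lowest in S there, at 17.1 CPM (15.4 to 18.96), with 23.9 CPM (21.7 to 26.4) in G2/M. IRF9 was at 4.74 CPM (3.87 to 5.75) in S and 6.69 CPM (5.53 to 8.04) in G2/M, intervals that overlapped.

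**Figure D3:**
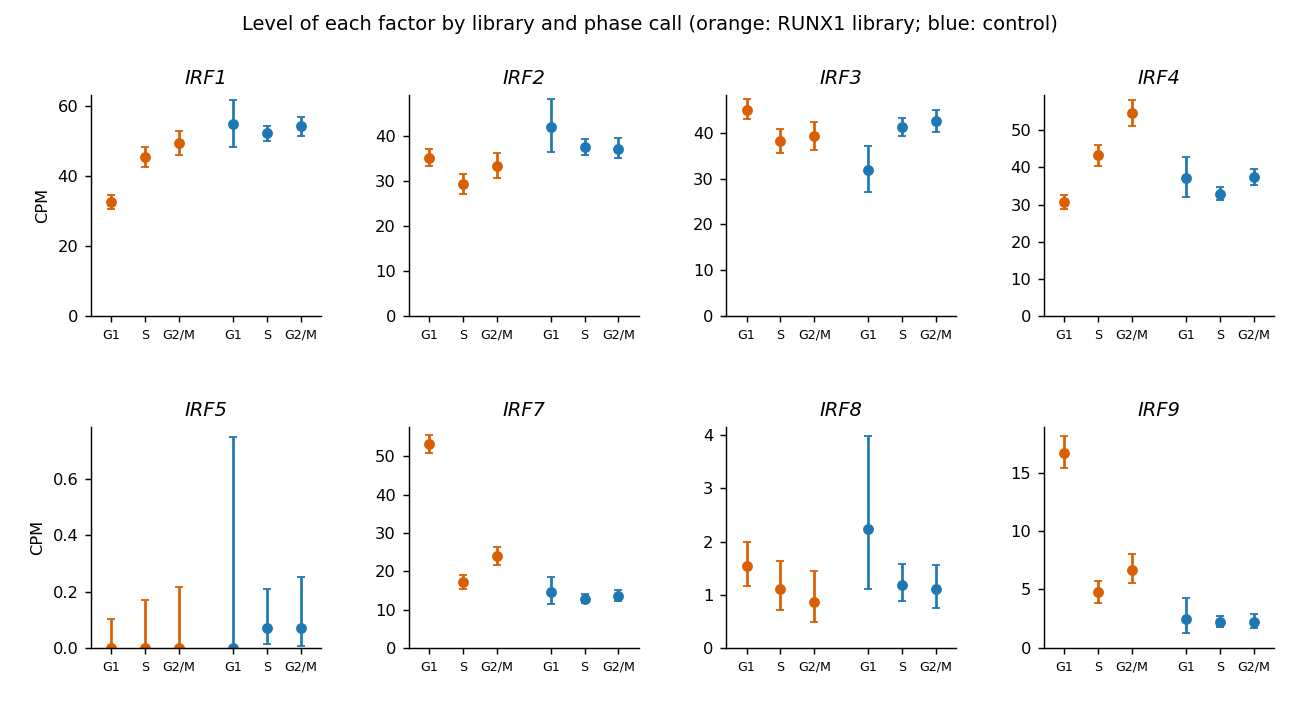
Each panel gives the level of 1 factor in CPM (vertical axis, starting at 0 and scaled per panel) in cells called G1, S or G2/M (horizontal axis), orange for the RUNX1-labelled library and blue for the control, with exact Poisson 95% intervals. IRF7 and IRF9 stand apart in orange G1 cells at 53.1 and 16.7 CPM, and IRF4 reaches 54.5 CPM in orange G2/M cells.

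Non-cycling cells of the RUNX1-labelled library were not alike. They were split by marker genes, in this order: 392 cells with a UMI of C1orf141 or LINC00967, 1240 with CCL3 or CCL4, both chemokine genes, 568 with FCER1G, the gamma chain of Fc receptors, and 734 with none of these. IRF7 was highest in the cells with chemokine UMIs, at 85.4 CPM (80.6 to 90.4), next in those with FCER1G, at 57.8 CPM (52.1 to 63.9), then in those with C1orf141 or LINC00967, at 31.3 CPM (26.2 to 37.1). In cells with none it was 20.5 CPM (17.95 to 23.2), an interval that overlaps that of G2/M cells of the same library. The chemokine cells thus held 4.18 times the IRF7 level of the cells with none (log2 ratio 2.06, 1.86 to 2.27).

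IRF9 followed another order. It was highest in cells with C1orf141 or LINC00967, at 27.3 CPM (22.6 to 32.8), then 20.6 CPM (18.3 to 23.2) in chemokine cells and 16.7 CPM (13.7 to 20.1) in cells with FCER1G, with neighbouring intervals overlapping. In cells with none it was 8.32 CPM (6.75 to 10.1), above the control at 2.23 CPM. IRF4 ran the other way, at 20.03 CPM (16 to 24.8), 24.5 CPM (21.9 to 27.2) and 28.0 CPM (24.1 to 32.3) in these 3 sets and 43.2 CPM (39.5 to 47.1) in cells with none. IRF1 hardly varied, between 30.2 and 33.9 CPM in the 4 sets. IRF3 was at 50.7 CPM in the cells with C1orf141 or LINC00967 and 51.1 CPM in the chemokine cells, against 36.8 CPM in cells with none.

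The chemokine cells had a median of 10242.5 UMIs and the cells with none 15843, so the shallower cells held the higher IRF7 level. At 8000 UMIs per cell, IRF7 was seen in 42.0% of chemokine cells and 15.1% of cells with none. Cells with 4 or more IRF7 UMIs numbered 61 of 1240 among the chemokine cells, with up to 16 in 1 cell, against 2 of 734 among those with none and 1 of 5598 in the control. The ratio of IRF7 to IRF4 UMIs was 3.49 (3.09 to 3.95) in chemokine cells, 2.06 (1.73 to 2.47) in cells with FCER1G, 0.473 (0.405 to 0.553) in cells with none, 0.417 (0.383 to 0.454) in cycling cells and 0.379 (0.353 to 0.408) in the control. Since a set is defined by a detected UMI, some cells counted under none may carry the marker genes unseen.

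**Figure D4:**
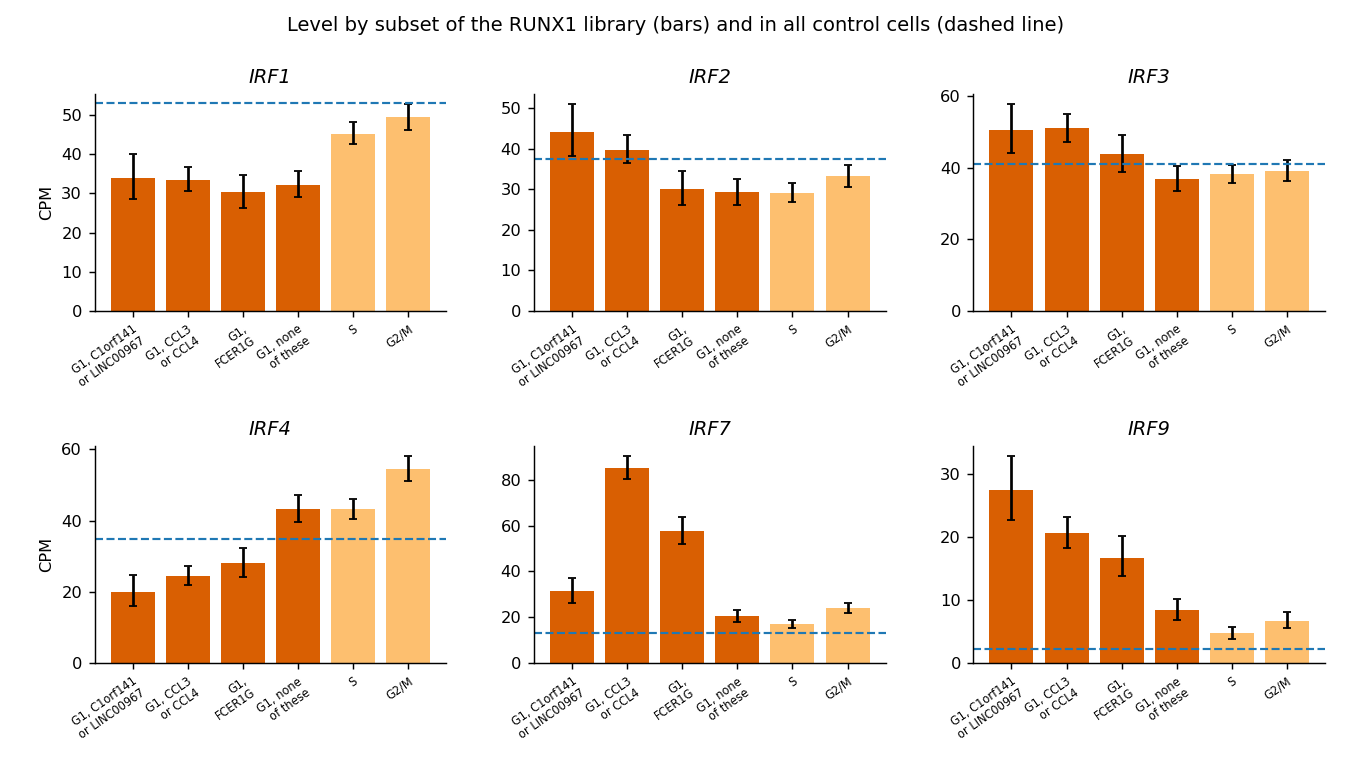
Bars give CPM (vertical axis, scaled per panel) of 6 factors in subsets of the RUNX1-labelled library (horizontal axis), dark orange for non-cycling cells split by marker genes and light orange for cells called S or G2/M, with exact Poisson 95% intervals; the dashed blue line is the level in all control cells. IRF7 peaks at 85.4 CPM in cells with CCL3 or CCL4, and IRF4 is below the control line in the 3 sets with marker genes and above it in the others.

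IRF9 stood higher and IRF1 lower in the RUNX1-labelled library, and the promoters of both hold a match to the gamma-activated site TTCNNNGAA, an element found in genes that respond to interferon gamma. Promoters, from 250 bases before to 50 after the annotated start, were matched in RefSeq on GRCh38.p14 for 5 of the 8 members (IRF1, IRF4, IRF5, IRF8 and IRF9). The pair printed here carries that match, given in capitals. IRF1 lies on the minus strand at chr5:132490724-132491023, with the match starting 124 bases before the start of transcription, and IRF9 on the plus strand at chr14:24161015-24161314, with the match starting 63 bases before it.
IRF1: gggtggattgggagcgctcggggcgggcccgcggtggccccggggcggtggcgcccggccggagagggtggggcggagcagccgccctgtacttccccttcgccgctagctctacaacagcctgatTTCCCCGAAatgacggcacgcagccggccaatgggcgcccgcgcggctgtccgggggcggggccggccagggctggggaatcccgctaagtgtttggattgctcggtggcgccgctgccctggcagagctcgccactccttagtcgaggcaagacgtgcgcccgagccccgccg
IRF9: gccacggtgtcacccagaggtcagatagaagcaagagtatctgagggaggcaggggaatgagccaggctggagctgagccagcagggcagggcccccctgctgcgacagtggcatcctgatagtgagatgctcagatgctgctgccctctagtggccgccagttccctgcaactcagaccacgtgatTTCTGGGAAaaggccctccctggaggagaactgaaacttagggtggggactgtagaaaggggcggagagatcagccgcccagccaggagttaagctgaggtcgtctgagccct

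A match to TTCNNNGAA on either strand was found in 7.66% of 35116 promoters of the same length. The interferon-stimulated response element (GAAA, any 2 bases, GAAA), present in 3.57% of them, was in none of the promoters of the 5 members. The ETS-IRF composite element (GGAA, any 2 bases, GAAA), where IRF4 or IRF8 sits beside the ETS factors encoded by SPI1 and SPIB, was in a promoter of IRF5 and in 2.82% of all. The RUNX motif TGTGGT was in a promoter of IRF5, in a promoter of IRF8 and in 13.1% of all. These shares are per promoter, and IRF5 and IRF8 each had more promoters searched than the other members matched. The motifs were searched on both strands, and these matches are letters in a window, not measured binding.

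Genes around the factors in the interferon pathway gave no common direction. The counts past 2-fold below stand beside 10.5% of all genes higher and 3.78% lower. Ratios are over all cells unless a state is named, and the libraries differed in their share of non-cycling cells. All 13 listed interferon genes, IFNB1 and IFNG among them, had 0 UMIs in both libraries, which allows up to 0.0398 CPM in the RUNX1-labelled library and 0.0396 CPM in the control. Of 6 receptor genes, 5 were above the floor, 1 was 2-fold higher and 0 lower, with a median log2 ratio of 0.38 beside 0.0020 for all genes. By state that median was 0.25 in non-cycling and 0.12 in cycling cells, beside 0.091 and -0.052 for all genes. IFNLR1, a chain of the interferon lambda receptor, was at 1.80 CPM in the RUNX1-labelled library and 0.304 CPM in the control (log2 ratio 2.57, 1.93 to 3.28), while IFNAR1 had -0.35, IFNGR1 0.54 and IL10RB 0.38.

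STAT2, a partner of IRF9 in ISGF3, was not 2-fold different. It was at 13.1 CPM in the RUNX1-labelled library and 7.38 CPM in the control (log2 ratio 0.82, 0.67 to 0.98). By state its log2 ratio was 0.41 in non-cycling and 0.43 in cycling cells. Of the 5 JAK and STAT genes 0 were past 2-fold, with a median of 0.42 that was 0.44 in non-cycling and -0.10 in cycling cells. The kinase genes TYK2 and JAK2 had 0.50 and 0.42. Of 21 sensors and adaptors upstream of IRF3, IRF5 and IRF7, 17 were above the floor, 2 were higher and 2 lower, with a median of -0.037. MYD88, the adaptor through which Toll-like receptors reach IRF7, was at 34.3 CPM in the RUNX1-labelled library and 13.5 CPM in the control (log2 ratio 1.34, 1.24 to 1.45). It had a log2 ratio of 1.94 in non-cycling and 0.26 in cycling cells. TLR4 had 1.38, the kinase gene IKBKE -1.04 and TRAF3 -1.02.

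Of 8 negative regulators, 7 were above the floor and 1 was 2-fold higher, with 0 lower and a median of 0.58. By state that median was 0.74 in non-cycling and 0.20 in cycling cells. SOCS1, an inhibitor of JAK kinases, was at 8.61 CPM in the RUNX1-labelled library and 1.19 CPM in the control (log2 ratio 2.86, 2.54 to 3.19). IRF2BPL had 0.77, PIAS1 0.67 and IRF2BP2, which encodes a corepressor bound by IRF2, 0.58.

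Genes that these factors are known to switch on had ratios in both directions. Of 34 listed type I interferon-stimulated genes, 27 were above the floor, 3 were 2-fold higher and 1 lower, near the shares over all genes. Their median was -0.15, or -0.031 in non-cycling and -0.12 in cycling cells. MX1, which blocks viral replication, was at 8.27 CPM in the RUNX1-labelled library and 1.58 CPM in the control (log2 ratio 2.38, 2.10 to 2.68). OAS1 had 1.36 and the exonuclease gene ISG20 1.32, while IFIT1 was at 2.39 CPM and 7.63 CPM (-1.68, -1.92 to -1.43). Of 17 interferon gamma and IRF1 targets, 12 were above the floor, with 1 higher, 2 lower and a median of -0.27. GBP4, a guanylate-binding protein gene, was at 27.6 CPM in the RUNX1-labelled library and 84.2 CPM in the control (-1.61, -1.68 to -1.54), and NLRC5, a coactivator of MHC class I genes, had -1.14. In the other direction GBP2 had 1.604 and GBP1 0.66. By state these were lower, at 1.19 in non-cycling and 0.26 in cycling cells for GBP2 and at 0.16 and 0.52 for GBP1.

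Among 6 DNA-binding partners of IRF4 and IRF8, 1 was 2-fold higher and 0 lower, with a median of -0.071. SPIB, the ETS factor that recruits IRF4 to composite elements, was at 147.9 CPM in the RUNX1-labelled library and 2.68 CPM in the control (log2 ratio 5.79, 5.59 to 5.99), with 5.14 in cycling cells. Its relative SPI1, encoding PU.1, was at 19.5 and 21.1 CPM, BATF had a log2 ratio of 0.70, IKZF1 -0.21 and BATF3 -0.16. By state the log2 ratio of BATF was 0.14 in non-cycling and -0.46 in cycling cells. That of SPI1 was -0.73 (-0.998 to -0.454) in non-cycling and 0.082 (-0.042 to 0.205) in cycling cells. Of 12 genes tied to IRF4 and IRF8 in mouse pre-B and B cells, 8 were above the floor, 2 were higher and 0 lower, with a median of 0.043. CD40, a receptor on B cells, had 201 UMIs in the RUNX1-labelled library and 11 in the control (log2 ratio 4.199, 3.33 to 5.22). VPREB1, part of the surrogate light chain that these factors repress in mice, had 1.18, the chemokine receptor gene CXCR4 0.76 and the recombinase gene RAG2 -0.95.

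**Figure D5:**
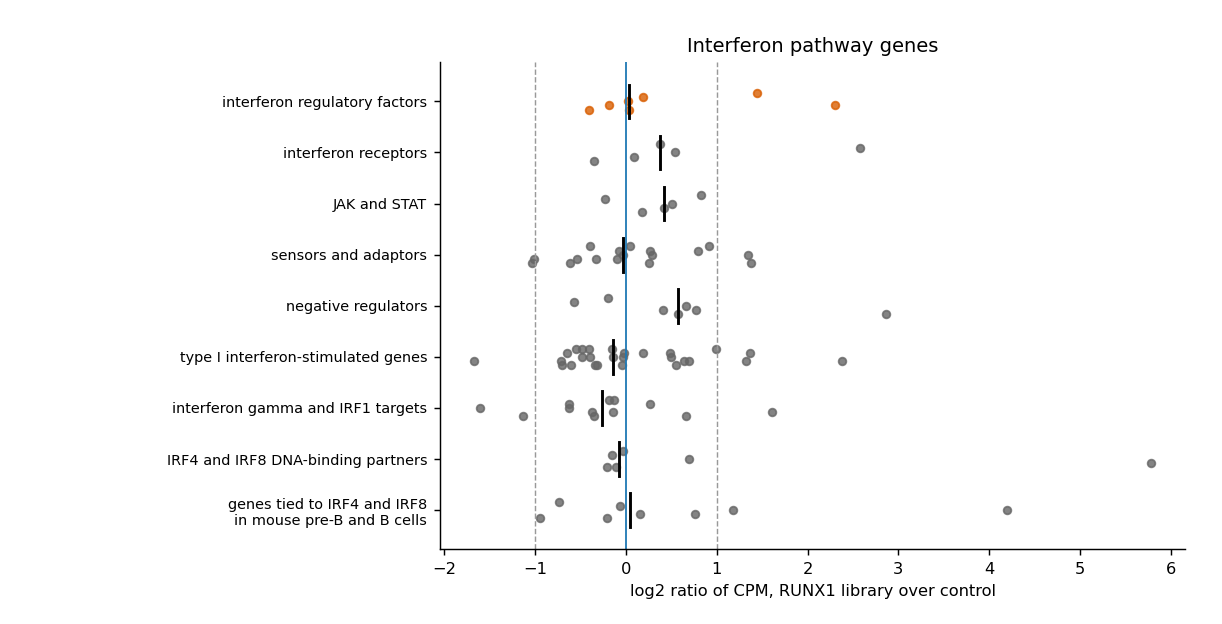
Each dot is the log2 ratio of CPM in the RUNX1-labelled library over the control (horizontal axis) for 1 gene above the floor of 1 CPM, by list (vertical axis), with the 7 interferon regulatory factors in orange and other lists in grey; black bars are list medians, the blue line the median of all genes and dashed lines 2-fold. IRF7 and IRF9 are the orange dots past 2-fold, SPIB lies farthest right at 5.79, and the list medians lie between -0.27 and 0.58.

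Genes whose pattern over the pools was most like that of a member were found from log2(CPM + 1) in 6 pools, the 3 phases in each library, centred per gene, as the smallest distance among genes at a mean of 10 CPM or more. For IRF7 these were OGFRL1 (distance 0.203), ARHGAP6 (0.232) and ING4 (0.266), where the median gene lay at 1.82. OGFRL1 was at 26.3 CPM in the RUNX1-labelled library and 9.37 CPM in the control. For IRF4 they were PIK3CD (0.186), a catalytic subunit of PI3-kinase in leukocytes, HNRNPA1P48 (0.231), a pseudogene whose counts are uncertain, and PHPT1 (0.234). The closest to IRF1 was DCAF13 (0.0846), to IRF2 PSMD4 (0.0895) and to IRF3 CASC7 (0.0977). The median gene lay nearer to these members than to IRF7, at 0.741 from IRF1, 0.638 from IRF2, 0.674 from IRF3 and 0.905 from IRF4. With 6 pools from 2 libraries, a short distance says only that levels ran alike in these pools.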

How the data were processed

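Droplet single-cell RNA-seq (10x Genomics, 3′ ends) was available for 1 library per group. The authors counted UMIs with Cell Ranger 3.0.2 against hg19 and mm10, and the deposited values are raw counts per gene and barcode with no normalization. Kept cells had over 2000 and below 6000 genes, less than 20% of UMIs from mitochondria and less than 500 from mouse. Doublets were not removed.

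Groups follow the genotype label. UMIs were summed over cells and scaled to the total (CPM). Ratios have no pseudocount, and genes above a mean of 1 CPM over both libraries were counted at 2-fold. Intervals are exact Poisson, binomial (Clopper-Pearson) and conditional binomial, and cover neither PCR nor culture variation. Phases were scored on 42 S and 54 G2/M genes (scanpy 1.11.5). Thinning to 8000 UMIs left out 612 cells of the RUNX1-labelled library and 413 control cells. Members, lists and the rule for named genes (all members, up to 4 genes per list with the largest ratios, and 3 nearest patterns) were chosen with earlier results of these data known. SPI1, the markers and overlapping genes are named outside that rule, SPI1 after its value was seen. A gene that the rule names is not reported here. Coordinates are those of GENCODE v44lift37 (GRCh37, also called hg19), looked up by Ensembl identifier, and promoters those of RefSeq on GRCh38.p14. Alternative scaling used TMM (edgeR 4.0.16, R 4.3.3). The rest ran in Python 3.11.15 with scipy 1.17.1. To check the code, counts for 12273 genes were drawn from the Poisson model that the intervals assume. Variation between cells, cultures or libraries was left out, so the outcome says nothing about it. In these counts 100 of 100 genes changed 4-fold passed 2-fold and 0 of 100 changed 1.5-fold did, and 95.58% of intervals held the simulated ratio.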

Additional observations from a re-analysis of the deposited data

Results flagged for a closer look

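For IRF3 and IRF4 the log2 ratio between the libraries, RUNX1-labelled over control, had opposite signs in non-cycling and in cycling cells, each with a counting interval that leaves out 0. The median of all genes was 0.091 in non-cycling and -0.052 in cycling cells. For IRF4 it was -0.28 in non-cycling and 0.47 in cycling cells, and for IRF3 0.50 in non-cycling and -0.11 in cycling cells, where the interval of IRF3 holds the median of all genes. With phases called on cells reduced to 8000 UMIs, the non-cycling value of IRF4 was -0.14 (-0.36 to 0.087) and no longer beyond counting error. For IRF3 the log2 ratio of non-cycling over cycling cells also had opposite signs, at 0.22 in the RUNX1-labelled library and -0.39 in the control. The medians of all genes in these comparisons were 0.090 and -0.044. With phases called on the reduced cells, the IRF3 ratios were 0.11 (0.0011 to 0.21) and -0.35 (-0.57 to -0.13). The interval of IRF3 in the RUNX1-labelled library then held the median of all genes, 0.044. With 1 library per group these differences were not tested.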

How the results depend on the processing

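The count of 2 members past 2-fold upward and 0 downward was the same under each alternative run for cells, scaling, weighting, fold and gene floor, and the counts by cycling state were the same with phases called on thinned cells. Over the 7 alternatives for cells, scaling and weighting, the log2 ratio ran from 1.40 to 2.09 for IRF7, from 2.26 to 2.68 for IRF9, from -0.44 to -0.10 for IRF1, from 0.023 to 0.28 for IRF3 and from 0.064 to 0.45 for IRF4. IRF8 ran from -0.42 to 0.25 and changed sign. IRF2 ran from -0.26 to 0.023, with its one positive value on totals that shift all genes by 0.21, and relative to the median of all genes it was negative under each of the 7. No paired analysis was possible because each group compared has 1 library. IRF8, at 95 UMIs in the RUNX1-labelled library and 93 in the control, and IRF5 are limited by depth.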

Other observations

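At 8000 UMIs per cell, IRF7 was seen in 36.2% (30.3 to 42.4) of the 257 non-cycling cells of the RUNX1-labelled library that had an IRF9 UMI and in 29.1% (27.2 to 31.1) of the 2085 that had none, intervals that overlap. Among the same cells, IRF7 was seen in 28.3% (24.2 to 32.6) of the 467 with an IRF4 UMI and in 30.3% (28.2 to 32.4) of the 1875 without, intervals that also overlap.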
